A study of Mus musculus with 23 samples.

Results

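The 10 genes described here are Hprt and Aprt, which salvage free purine bases, Ppat, Gart, Pfas, Paics, Adsl and Atic, which build the purine ring, and Impdh2 and Gmps, which turn the product into GMP. They were selected from 20141 genes named on the array by their place in purine synthesis and salvage, and chosen with their differences between the compounds and DMSO on these arrays already known. Their probes are the 14 of 55681 non-control probes whose RefSeq transcript belongs to one of them. Ppat and Impdh2 had 2 probes each, Gmps had 3 and the other genes 1. All cells were TM4, an immortalized mouse Sertoli line, the cell that nurses germ cells in the testis, and all received 1.0% DMSO for 48 hr. The treatments were DMSO alone or 100 μM of MEHP (the monoester metabolite of the phthalate plasticizer DEHP), DINCH (a commercial cyclohexane dicarboxylate), DOM (dioctyl maleate), BDB (a butanediol dibenzoate) or DOS (dioctyl succinate). There were 4 arrays per treatment, described as biological replicates, and 3 for DOS, of which the study left 1 out for high background. The p-values below measure only the spread among these cultures of 1 line.

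Cells make purines either by building the ring step by step on ribose phosphate (de novo synthesis) or by attaching a free base to the same activated ribose (salvage). Hprt salvages hypoxanthine and guanine, and Aprt salvages adenine. De novo synthesis starts with Ppat, the committed and feedback-inhibited step, and passes through Gart, Pfas, Paics, Adsl and Atic to IMP. Adsl acts again on the branch to AMP, and Impdh2 and Gmps form the branch to GMP. Gart and Atic use formyl groups carried by folate, so the pathway depends on one-carbon metabolism. Proliferating cells use the de novo route heavily, and Hprt is a common reference gene in quantitative PCR, as it was in this study.

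The stretch before the transcription start of the genes is shown here for Hprt, because it was the reference gene, for Ppat and Paics, because their 5′ ends overlap on opposite strands of chromosome 5, and for Atic, because its difference under DOM passed the calling threshold. The set of RefSeq promoter stretches (build GRCm38.p6) held 9 of the 10 genes, all but Pfas. The Gmps stretch, with the lowest GC content of the 9, lies before a start at base 63976143. That start is inside the gene, which begins at base 63963633. The starts of Ppat and Paics are 276 bases apart, each inside the other gene, so the stretch upstream of each also lies inside the other gene. Each line holds the 250 bases upstream of the start, 5′ to 3′ on the strand of the gene, and capitals mark the motifs that were searched on both strands. Hprt lies at chrX:52987828-52988077 (plus strand), Ppat at chr5:76951579-76951828 (minus strand), Paics at chr5:76951052-76951301 (plus strand) and Atic at chr1:71556906-71557155 (plus strand).
Hprt: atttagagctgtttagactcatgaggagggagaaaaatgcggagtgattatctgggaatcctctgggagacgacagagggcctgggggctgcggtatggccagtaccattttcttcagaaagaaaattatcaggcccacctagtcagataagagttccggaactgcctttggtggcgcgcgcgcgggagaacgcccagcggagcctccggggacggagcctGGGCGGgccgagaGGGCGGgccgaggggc
Ppat: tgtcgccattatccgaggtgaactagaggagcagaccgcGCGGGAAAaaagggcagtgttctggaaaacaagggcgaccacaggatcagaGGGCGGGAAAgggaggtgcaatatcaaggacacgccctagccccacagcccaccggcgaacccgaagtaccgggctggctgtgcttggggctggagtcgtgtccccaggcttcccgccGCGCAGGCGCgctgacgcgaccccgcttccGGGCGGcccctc
Paics: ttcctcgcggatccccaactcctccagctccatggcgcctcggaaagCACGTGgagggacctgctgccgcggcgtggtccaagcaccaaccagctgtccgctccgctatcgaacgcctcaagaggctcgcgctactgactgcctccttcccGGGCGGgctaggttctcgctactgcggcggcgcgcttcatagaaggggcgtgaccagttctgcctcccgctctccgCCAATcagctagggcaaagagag
Atic: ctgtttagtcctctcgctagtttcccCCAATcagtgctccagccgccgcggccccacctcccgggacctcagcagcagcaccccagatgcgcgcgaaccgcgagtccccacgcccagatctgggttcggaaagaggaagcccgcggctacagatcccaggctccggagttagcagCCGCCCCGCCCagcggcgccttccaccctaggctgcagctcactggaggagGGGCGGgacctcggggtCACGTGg
The motifs were the GC box GGGCGG, the E-box CACGTG, the CCAAT box, the NRF1 motif and the E2F motifs TTTGGCGC and TTTCCCGC. All 9 stretches held a GC box, which 32.7% of 32851 RefSeq promoter stretches of the same length held. The E-box, the sequence that MYC and related factors recognise, was found upstream of Paics, Atic and Impdh2, against 6.0% of all stretches. In Atic it ended 2 bases before the start. CCAAT was found upstream of Gart, Paics and Atic, against 33.8% of all stretches. Ppat alone held the NRF1 motif (3.7% of all stretches) and TTTCCCGC (0.9%), the latter in 2 places, of which the one nearer the start overlapped a GC box. TTTGGCGC, held by 0.4% of all stretches, was found in none. The GC content of the 9 stretches ran from 51.2% to 68.8% with a median of 60.8%, against a median of 52.4% for all. These are matches of letters, and binding was not measured.

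Levels are log2 intensities relative to the 75th percentile of the array, so a difference of 1 is a factor of 2. Levels of different probes are not compared, apart from sums of the signals of cell type markers. All 14 probes were well above background on all 23 arrays, and no spot was saturated. The 75th percentile signal ran from 204.6 to 350.7 over the arrays, and 43.4% to 52.2% of spots were well above background, with overlapping ranges between every treatment and DMSO. Each of 3 slides carried DOM and DMSO arrays. On them DOM and DOS shared the rows used for DMSO, while MEHP, DINCH and BDB had other rows, so that for these compounds row and treatment cannot be told apart. Of 16 Sertoli cell markers, 7 were well above background on all 23 arrays (among them Gata4, Dhh, Inhbb and Dmrt1), 4 on none (Wt1, Gata1, Fshr and Cldn11), and Amh and Trf on no DMSO array. The label of a Sertoli line was thus met by part of its markers.

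The genes were proposed with the comparisons against DMSO already known. Their differences are therefore given as a description, with the standard error and 95% interval of the limma fit over all probes and with no p-value. A gene counted as called when a probe had an adjusted p below 0.05 and differed by more than 1.5-fold. The share of all tested genes called the same way is printed beside each count as a background, and nothing is read from the count. The 5 comparisons share the same 4 DMSO arrays. An array measures RNA per unit of total signal, and fewer cells of a type and less RNA per cell cannot be told apart.

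**Figure D1:**
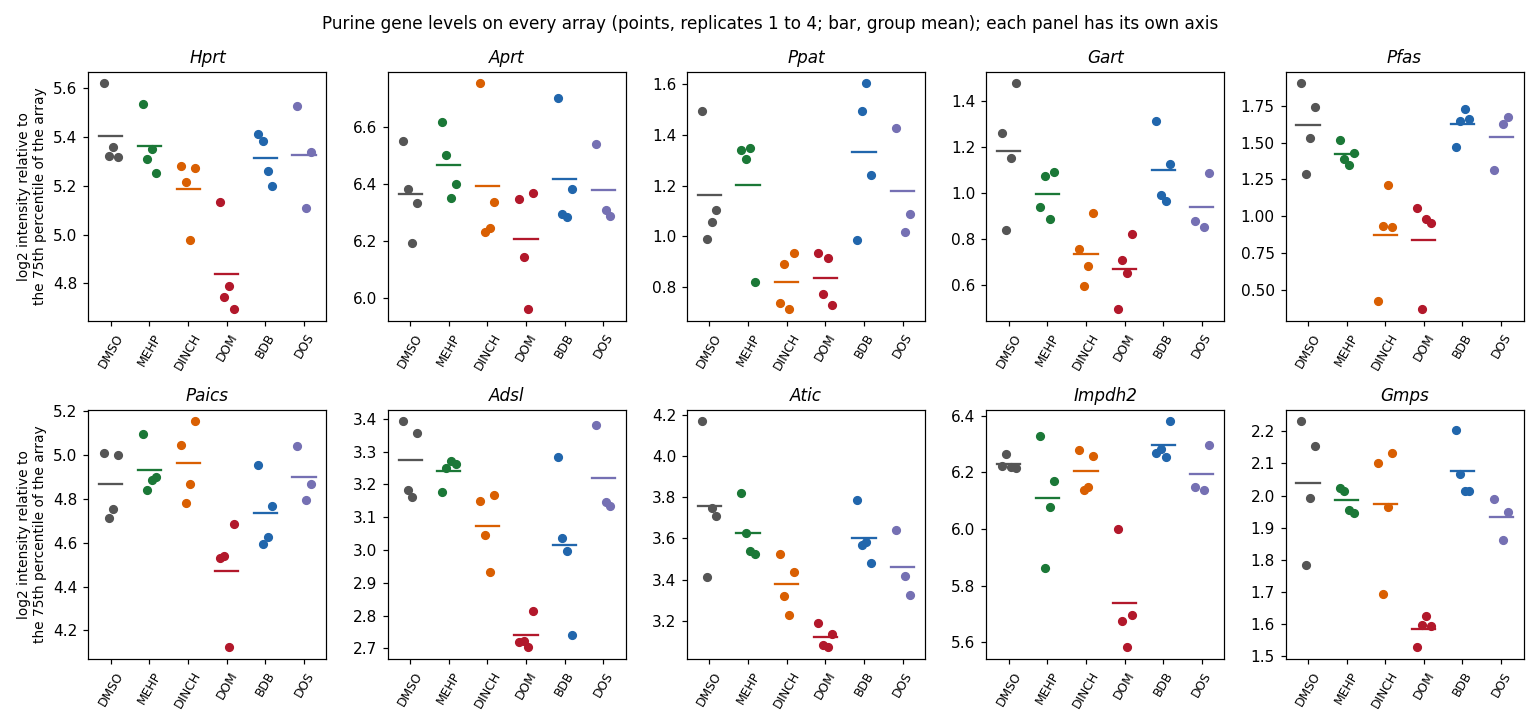
Level of each of the 10 genes (brightest probe) on every array, as log2 intensity relative to the 75th percentile of the array, by treatment. Points are arrays in the order of replicate number and bars are group means, and each panel has its own axis. The 4 DOM arrays of Atic (3.07 to 3.19) and Gmps (1.53 to 1.63) lie below the other 19 arrays.

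Under DOM all 10 genes lay below DMSO in the mean, by 0.16 to 0.78 on the log2 scale with a median of -0.50, and only Aprt turned sign under another scaling (0.03 with quantile normalization). Among all tested genes 52.7% lay below DMSO and the median was -0.03. For 9 genes, all but Aprt, every DOM array lay below every DMSO array, which 20.4% of all tested genes also did. Pfas and Atic were called lower, 2 of 10, against a background of 10.6% lower and 20.5% in either direction.

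Hprt was printed 10 times on each array. Its DMSO arrays were at 5.62, 5.32, 5.36 and 5.32, and its DOM arrays were at 5.14, 4.74, 4.79 and 4.69. The groups did not overlap, and the first array of each group was the highest. The DOM mean lay at -0.57 relative to DMSO (SE 0.13, 95% interval -0.85 to -0.28), which is 1.48-fold or 32.4% lower and just short of the 1.5-fold needed for a call. It passed in 4 of 18 alternatives, with the slide as a block and without DOM replicate 1, DMSO replicate 2 or DMSO replicate 4. Over the 18 alternatives the difference ran from -0.66 to -0.47. Within slides the difference was -0.68 to -0.55 on the 3 slides.

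The other Hprt means lay between those of DMSO and DOM. The MEHP arrays were at 5.54, 5.31, 5.35 and 5.25, the BDB arrays at 5.41, 5.38, 5.26 and 5.20, and the DOS arrays at 5.53, 5.11 and 5.34. The DINCH arrays were at 5.28, 5.21, 4.98 and 5.27, all below the lowest DMSO array. In order of the means the groups were DMSO (5.41 ± 0.15, SD, n = 4), MEHP (5.36 ± 0.12), DOS (5.33 ± 0.21, n = 3), BDB (5.31 ± 0.10), DINCH (5.19 ± 0.14) and DOM (4.84 ± 0.20). Neighbours in this order from DMSO to DINCH differed by less than the pooled SD between replicate arrays of 0.16. DINCH and DOM overlapped, since the highest DOM array lay above the lowest DINCH array.

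The repeated spots of Hprt show how much of this spread lies within an array. The SD over the spots of an array had a median of 0.058 (0.036 to 0.102), and 1 spot, on DOS replicate 3, was set aside as an outlier. The SD of the array means over all 23 arrays was 0.24, and 52.0% of 11155 genes measured on all arrays had a smaller one. By this measure Hprt lay near the middle of these genes. Setting a gene relative to Hprt on these arrays adds 0.57 to its log2 difference under DOM, 0.22 under DINCH, 0.04 under MEHP, 0.09 under BDB and 0.08 under DOS. Relative to Hprt the DOM differences of the other 9 genes ran from -0.21 (Pfas) to 0.41 (Aprt), and 7 of 9 were above 0. The paper reports that Hprt was tested and accepted as the housekeeping gene of the study's quantitative PCR, which was not analysed here.

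**Figure D2:**
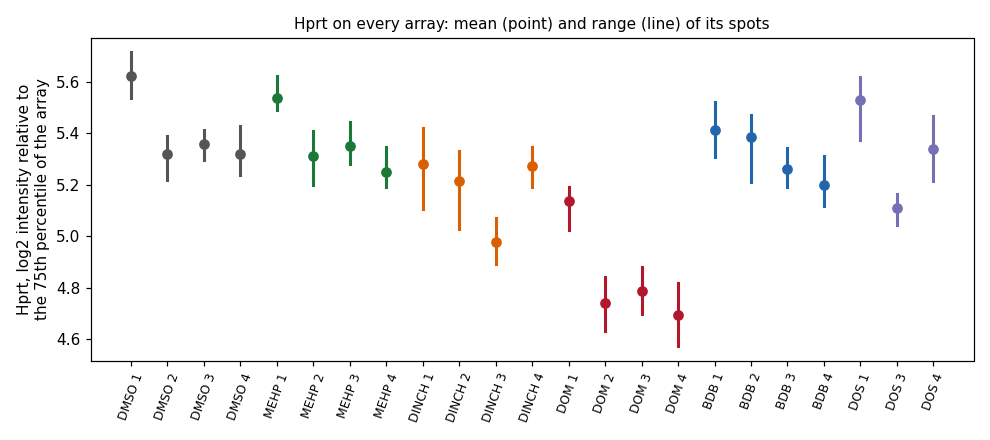
Hprt on each of the 23 arrays, as log2 intensity relative to the 75th percentile of the array. Points are means over the spots of the array and lines run from its lowest to its highest spot. DOM replicates 2 to 4 (4.69 to 4.79) have means below those of all other arrays, and DOM replicate 1 (5.14) lies within the range of DINCH and DOS.

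Aprt, the other salvage enzyme, differed least. Its DMSO arrays were at 6.55, 6.38, 6.19 and 6.33 and its DOM arrays at 6.35, 6.14, 5.96 and 6.37. The groups overlapped, and the difference was -0.16 (SE 0.13, 95% interval -0.44 to 0.12). Within slides it ran from -0.33 to 0.04 and was below 0 on 2 of 3.

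Ppat, the committed enzyme of the de novo route, was at 1.49, 0.99, 1.06 and 1.11 in DMSO and at 0.93, 0.77, 0.92 and 0.73 in DOM. The DOM arrays were the lower ones, with a small gap, and the difference was -0.32 (SE 0.13, 95% interval -0.61 to -0.04). Its other probe gave -0.38 with overlapping arrays. Gart, a trifunctional enzyme that carries out early steps of the ring, was at 1.26, 0.84, 1.15 and 1.48 in DMSO and at 0.50, 0.71, 0.65 and 0.82 in DOM. Here too no arrays overlapped, and the difference was -0.51 (SE 0.14, 95% interval -0.84 to -0.19).

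Pfas, which adds nitrogen from glutamine to the growing ring, had the largest difference of the 10 genes under DOM. The DMSO arrays were at 1.90, 1.29, 1.53 and 1.74 and the DOM arrays at 1.05, 0.37, 0.98 and 0.95. All DOM arrays were lower, DOM replicate 2 by far the lowest. The difference was -0.78 (SE 0.18, 95% interval -1.19 to -0.36), or 1.72-fold lower, and it passed the calling threshold. It ran from -1.19 to -0.43 within slides and kept the call in 17 of 18 alternatives.

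Paics, which joins a carboxylase and a synthetase in a single protein, was at 5.01, 4.71, 4.75 and 5.0 in DMSO and at 4.53, 4.54, 4.12 and 4.68 in DOM. The gap between the groups was narrow, and the difference was -0.40 (SE 0.14, 95% interval -0.71 to -0.08). Adsl, the lyase that serves both the de novo route and the AMP branch, was at 3.39, 3.18, 3.16 and 3.36 in DMSO and at 2.72, 2.72, 2.70 and 2.81 in DOM. The DOM arrays of Adsl lay close together and clearly apart from DMSO, with a difference of -0.53 (SE 0.09, 95% interval -0.75 to -0.32).

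Atic, which closes the ring to IMP, was at 4.17, 3.41, 3.75 and 3.71 in DMSO and at 3.19, 3.08, 3.07 and 3.14 in DOM. The DOM arrays spread far less than the DMSO arrays (SD 0.05 against 0.31) and lay below all 19 arrays of the other treatments. The difference was -0.64 (SE 0.15, 95% interval -0.97 to -0.30), or 1.56-fold lower, and it passed the calling threshold in the reported fit and in 16 of 18 alternatives. Without DMSO replicate 1, the highest, it was not called, and Pfas was then the only gene of the 10 called. Without a filter on dim probes neither was called.

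Of the GMP branch, Impdh2, the rate-limiting dehydrogenase, was at 6.22, 6.26, 6.22 and 6.22 in DMSO and at 6.00, 5.68, 5.58 and 5.70 in DOM. The DMSO arrays were nearly alike, and all DOM arrays were lower. The difference was -0.49 (SE 0.11, 95% interval -0.73 to -0.25), and the other probe gave -0.45, also without overlap. Quantile normalization moved it to -0.32. Gmps, the GMP synthetase, was at 2.23, 1.78, 1.99 and 2.15 in DMSO and at 1.53, 1.60, 1.63 and 1.59 in DOM. By this probe no other array was as low as any DOM array, and the difference was -0.45 (SE 0.11, 95% interval -0.71 to -0.20). The 2 dimmer Gmps probes disagreed with it, at -0.11 (95% interval -0.36 to 0.14) and 0.53 (95% interval 0.07 to 0.98). The last of these was dim, at -2.95 in DMSO.

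**Figure D3:**
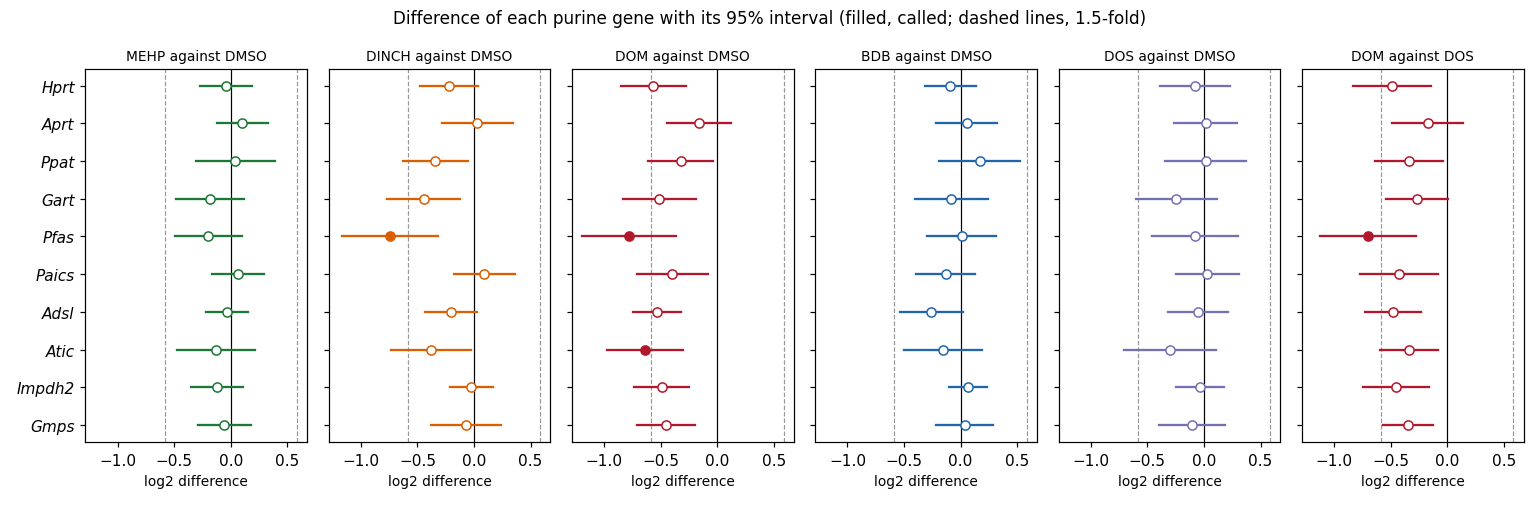
Log2 difference of each gene (brightest probe) in the 5 comparisons with DMSO and in DOM against DOS. Points are differences, filled where called, lines are 95% intervals, and dashed lines mark 1.5-fold. Under DOM the intervals of 9 of 10 genes lie below 0, under DINCH those of 4, and under MEHP, BDB and DOS those of none, against 24.3%, 15.7%, 8.85%, 10.8% and 2.9% of all tested genes.

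DINCH divided the 10 genes. Pfas was called lower, 1 of 10, against a background of 4.02% lower and 8.26% in either direction, and 8 of 10 genes lay below DMSO with a median of -0.21, against 50.1% of all tested genes. Pfas was at 0.42, 0.93, 1.21 and 0.93 under DINCH, all below DMSO, with a difference of -0.74 (SE 0.19, 95% interval -1.16 to -0.32). The call was lost with the replicate number as a block (0 of 10), and without DMSO replicate 1, 3 or 4 or DINCH replicate 1, 2 or 4. Without DMSO replicate 4 the 1 gene called was Ppat, by its dimmer probe.

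The interval lay below 0 for 4 of the 10 genes, Pfas and 3 others, against 15.7% of all tested genes. Gart lay at -0.45 (95% interval -0.77 to -0.12), Atic at -0.38 (95% interval -0.73 to -0.03) and Ppat at -0.34 (95% interval -0.63 to -0.05). The dimmer Ppat probe gave -0.58 (95% interval -0.93 to -0.23). Hprt, Ppat and Pfas had all DINCH arrays below all DMSO arrays, 3 of 10, against 12.4% of all tested genes. The GMP branch and Aprt lay close to DMSO, with Impdh2 at -0.03, Gmps at -0.07 and Aprt at 0.03, each interval including 0.

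Ppat and Paics, the pair with overlapping 5′ ends, differed in direction under DINCH, where Paics lay at 0.09 (95% interval -0.18 to 0.37). This pair was singled out after the values were seen. Relative to the DMSO mean, Ppat minus Paics was -0.60, -0.18, -0.44 and -0.51 on the DINCH arrays and 0.19, -0.02, 0.01 and -0.19 on the DMSO arrays. DINCH replicate 2 thus overlapped the lowest DMSO array. Under DOM, where both genes were lower, it was 0.11, -0.06, 0.50 and -0.25.

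MEHP, BDB and DOS gave no called gene among the 10. By limma the background of called genes was 1.68% for MEHP and 0% for BDB and DOS. At an unadjusted p below 0.05 the 10 genes still gave 0 for each, while 21.6%, 19% and 7.73% of all tested genes passed that threshold for MEHP, BDB and DOS. The largest differences were -0.20 for Pfas under MEHP (95% interval -0.49 to 0.10), -0.26 for Adsl under BDB (95% interval -0.54 to 0.02) and -0.30 for Atic under DOS (95% interval -0.70 to 0.11). The interval of Adsl under BDB and that of Atic under DOS reach the differences these genes had under DOM. Below DMSO lay 7 of 10 genes under MEHP, 5 under BDB and 7 under DOS, with medians of -0.05, -0.04 and -0.07, against 52.9%, 57.2% and 52.2% of all tested genes. None of the 10 had all its arrays below DMSO, against 6.63%, 8.66% and 3.81% of all tested genes.

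**Figure D4:**
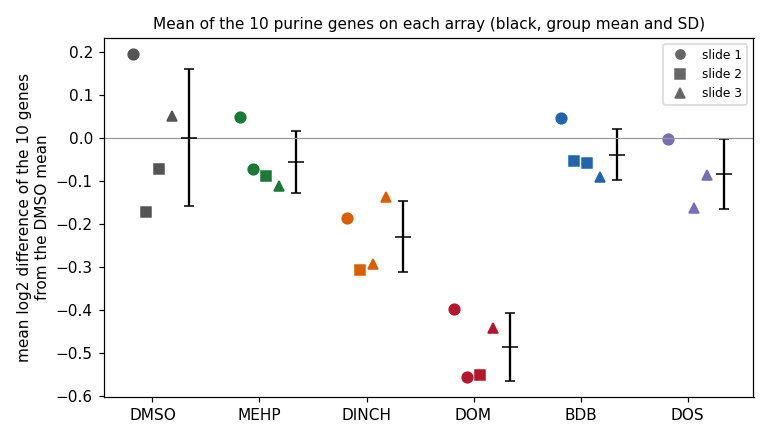
Mean over the 10 genes on each array, as the log2 difference from the mean of the DMSO arrays. Symbols mark the 3 slides, and black bars are the group mean with its SD. The DOM arrays lie from -0.56 to -0.40 and the DMSO arrays from -0.17 to 0.19.

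The mean over the 10 genes gives 1 value per array. It was 0.19, -0.17, -0.07 and 0.05 on the DMSO arrays and -0.40, -0.56, -0.55 and -0.44 on the DOM arrays. The DOM arrays lay below every other array, on each of the 3 slides. The DINCH arrays (-0.31 to -0.14) lay between DOM and DMSO and reached into the DMSO range. The MEHP mean was -0.06 ± 0.07 (SD, n = 4), the BDB mean -0.04 ± 0.06 (n = 4) and the DOS mean -0.08 ± 0.08 (n = 3).

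DOM and DOS are both dioctyl esters of a short diacid, unsaturated in maleate and saturated in succinate. They were given at the same dose and time and in the same slide rows, but the slides were not balanced. DOM replicates 1 and 2 were on slide 1, replicate 3 on slide 2 and replicate 4 on slide 3. DOS replicate 1 was on slide 1, and replicates 3 and 4 were on slide 3. This was the only pair of compounds compared directly, over 10 genes, and it shares the DOM arrays with the comparison against DMSO, so its values are a description. All 10 genes lay lower under DOM than under DOS, from -0.70 to -0.17 with a median of -0.39, against 51.4% of all tested genes. Pfas was called lower, against a background of 8.06% lower and 15.2% in either direction, at -0.70 (SE 0.19, 95% interval -1.12 to -0.28). Its DOS arrays were at 1.32, 1.63 and 1.67, all above DOM. The call was lost without any 1 of the 3 DOS arrays, without DOM replicate 2 or 4, with a block for the slide or for the replicate number, and with a looser filter on dim probes or none.

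Hprt lay at -0.49 (95% interval -0.83 to -0.14) in DOM against DOS, with DOS replicate 3 inside the DOM range. Adsl lay at -0.48 (95% interval -0.73 to -0.23), Impdh2 at -0.46 (95% interval -0.75 to -0.16) and Paics at -0.43 (95% interval -0.77 to -0.09). The interval lay below 0 for 8 of 10 genes, against 20% of all tested genes. For Gart (-0.27, 95% interval -0.55 to 0.004) and Aprt (-0.17, 95% interval -0.49 to 0.14) the interval included 0. In 8 of 10 genes every DOM array lay below every DOS array, against 20.8% of all tested genes. The dimmest Gmps probe was called in the other direction, at 0.84 (95% interval 0.44 to 1.24), against a background of 7.15%, while the brightest lay at -0.35.

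Beyond the 10 genes, lists of neighbouring pathways were counted in the same fit, again chosen with earlier results known, and the one-carbon genes had been counted in these data before. Most genes named from the lists were the called ones with the largest change. Their adjusted p-values come from the fit over all probes, serve as a description and test no list. Of 79 tested genes 33 were called under DOM, by the same rule that called 20.5% of all tested genes. The one-carbon list held folate enzymes and the serine synthesis enzymes Phgdh, Psat1 and Psph. It had 9 of 10 genes called lower and none higher, with a median of -1.11. Of all 12002 genes tested, 10.6% were called lower and 9.91% higher. Shmt2, the mitochondrial serine hydroxymethyltransferase, fell by 1.80 (SE 0.11, adjusted p = 7.73e-05). Psph, the last step of serine synthesis, fell by 1.39 (SE 0.10, adjusted p = 0.00016). Psat1, the step before it, fell by 1.30 (SE 0.16, adjusted p = 0.000634), and Shmt1, the cytosolic form of Shmt2, by 1.30 (SE 0.14, adjusted p = 0.000383). Shmt1 was at a low level of -1.86 under DOM, and its difference ran from -1.40 to -0.89 over the alternatives. Mthfd1l, which makes formate in mitochondria, fell by 1.12 (SE 0.12, adjusted p = 0.000416). Mthfd2l, at -0.18 (adjusted p = 0.198), was the only gene of the list not called.

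The list of purine interconversion, recycling and degradation was mixed. Of its 29 tested genes 6 were called lower and 1 higher under DOM, against a background of 10.6% lower and 9.91% higher, with a median of -0.19. Prps1, which makes the activated ribose used by Ppat, Hprt and Aprt, fell by 1.15 (SE 0.14, adjusted p = 0.000709). Dck, which phosphorylates deoxynucleosides, fell by 1.17 (SE 0.17, adjusted p = 0.00115), and the nucleoside transporter Slc29a1 fell by 0.83 (SE 0.14, adjusted p = 0.00267). Ak6, an adenylate kinase whose locus overlaps Taf9, so that its probe may not separate them, fell by 0.92 (SE 0.14, adjusted p = 0.00155). Adssl1, the muscle form of the enzyme that starts the AMP branch, rose by 1.96 (SE 0.20, adjusted p = 0.000318) from a dim level of -2.86 in DMSO. Named after their values were seen, the other form Adss fell by 0.70 (SE 0.20, adjusted p = 0.0285) with overlapping arrays, and Xdh, which oxidises hypoxanthine to uric acid, fell by 0.79 (SE 0.14, adjusted p = 0.00306). Impdh1, the second IMP dehydrogenase, lay at -0.27 (adjusted p = 0.0538).

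In the list of pyrimidine and deoxynucleotide synthesis 8 of 18 genes were called lower and 1 higher, with a median of -0.52. The background was 10.6% lower and 9.91% higher. The other 9 were not called, among them Tyms, thymidylate synthase, at -0.29 (adjusted p = 0.0821), which was named after its value was seen. Tk1, thymidine kinase, fell by 2.05 (SE 0.36, adjusted p = 0.00304), Rrm2 by 1.83 (SE 0.26, adjusted p = 0.0013) and Rrm1 by 1.21 (SE 0.15, adjusted p = 0.000687), both subunits of ribonucleotide reductase. Dut, which removes dUTP, fell by 1.67 (SE 0.22, adjusted p = 0.000895). Ctps2, a CTP synthase, rose by 1.58 (SE 0.13, adjusted p = 0.000208) from a dim level.

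Among growth-linked genes, mostly nucleolar, 6 of 12 were called lower and 1 higher, with a median of -0.57. The background was 10.6% lower and 9.91% higher. Dkc1 fell by 1.03 (SE 0.20, adjusted p = 0.00449), Nop56 by 0.93 (SE 0.12, adjusted p = 0.000674) and Nop58 by 0.90 (SE 0.13, adjusted p = 0.00107), all of them parts of particles that modify ribosomal RNA. Ncl, nucleolin, fell by 0.66 (SE 0.11, adjusted p = 0.00281) by its brightest probe, while its other probe lay at 0.02. Odc1, which is not nucleolar but starts polyamine synthesis, rose by 0.66 (SE 0.20, adjusted p = 0.0322) with overlapping arrays, a call kept in 9 of 18 alternatives, and another of its probes rose by 0.70 (adjusted p = 0.00369) without overlap. The called genes of this list dropped from 7 to 4 with quantile normalization or without DMSO replicate 1. In the MYC network 1 of 10 genes was called, against a background of 20.5% in either direction. It was Mxd3, a partner of MAX that opposes MYC, which fell by 1.86 (SE 0.21, adjusted p = 0.000511) to a dim level of -2.58. Over the alternatives its difference ran from -2.05 to -1.07, and its call was kept in 18 of 18. Without DMSO replicate 2 the MYC network had 2 called genes. Myc itself lay at -0.26 (SE 0.17, adjusted p = 0.276), and the median of the list was 0.27.

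**Figure D5:**
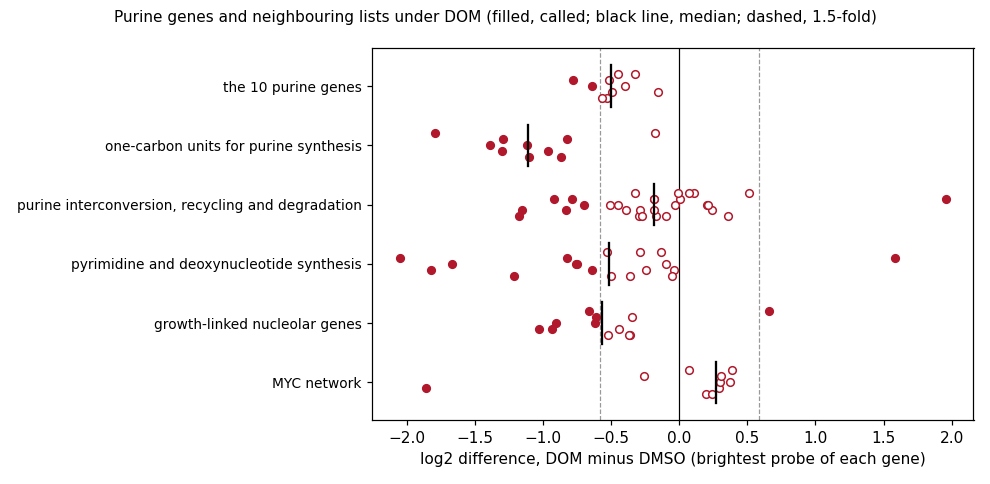
Log2 difference between DOM and DMSO for the 10 purine genes and for the 5 neighbouring lists (brightest probe of each gene). Filled points were called, black lines are medians and dashed lines mark 1.5-fold. The medians run from -1.11 for the one-carbon list to 0.27 for the MYC network.

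For the other compounds fewer of the 79 genes were called than under DOM, though not in every list. DINCH had 16 of 79 genes called, where 8.26% of all tested genes were, 15 of them lower, among them Shmt2 at -0.80 (SE 0.11, adjusted p = 0.00537), Nop56 at -0.83 (SE 0.10, adjusted p = 0.00363) and Myc at -0.74 (SE 0.20, adjusted p = 0.0463). Adssl1 was again higher, at 1.71 (SE 0.18, adjusted p = 0.003). These 4 genes were picked after their values were seen, and their adjusted p-values come from the fit without a block for the replicate number. MEHP, BDB and DOS had 0 of 79 called by limma, with 21, 19 and 10 genes at an unadjusted p below 0.05, a threshold that 21.6%, 19% and 7.73% of all tested genes passed. By list, 6 of 12 growth-linked genes were called lower under DINCH, with a median of -0.48, and 1 of 10 in the MYC network. Under DOM these lists had the same numbers called lower. The one-carbon list had 3 of 10 called lower under DINCH, fewer than under DOM. So did the purine interconversion list (2 of 29) and the pyrimidine list (3 of 18). The background under DINCH was 4.02% lower. Whether the lists differ between compounds was not tested.

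The genes whose pattern over the 23 arrays was most like that of Hprt were sought among 11154 others measured on all arrays, by the root mean square difference of levels centred on the mean of each gene. They were Abhd17b (0.089), Map6 (0.095), Pdap1 (0.099), Hddc2 and Nup93 (0.101), against a median of 0.33 over all genes. Their DOM differences ran from -0.55 (Hddc2) to -0.38 (Nup93). None belongs to purine metabolism by the lists used. Of the 9 other purine genes the nearest to Hprt was Atic, at rank 71, followed by Adsl at 181, and the farthest was Pfas at 5373.

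One Sertoli cell marker led the sum of these markers. The summed level of the 16 Sertoli markers, in multiples of the 75th percentile signal, ran from 43.7 to 69.6 on the DOM arrays and from 14.7 to 28.6 on the DMSO arrays, without overlap. Inhbb, an inhibin and activin subunit, made up 68.3% to 82.3% of the sum on the DMSO arrays and 88.8% to 93.1% on the DOM arrays. These are shares of probe signal and not of RNA. Without Inhbb, a split made after the sums were seen, the sum ran from 4.61 to 5.06 in DMSO and from 4.72 to 5.18 in DOM, with overlap. Of the 7 markers well above background on all arrays, 3 had every DOM array above every DMSO array and 4 overlapped. Among the other markers, Sox9 (on 20 arrays) and Clu (on 12) had every DOM array below every DMSO array. Their differences were -0.92 and -0.79, and the rest overlapped. Of the markers of other cell types, Leydig cells had 3 of 5 on no array (Cyp11a1, Hsd3b1 and Lhcgr), germ cells 2 of 6 (Ddx4 and Dazl), peritubular myoid cells 1 of 5 (Myh11), macrophages 3 of 5 (Ptprc, Adgre1 and Lyz2) and endothelial cells 2 of 4 (Cdh5 and Tek). On all 23 arrays were Cyp17a1 of the Leydig list, Prm1 of the germ cell list, Acta2, Cnn1 and Tagln of the myoid list, Csf1r and Itgam of the macrophage list and Pecam1 and Kdr of the endothelial list. The summed levels of the lists under DOM and DMSO overlapped in each of these types. The summed myoid level was 203 to 251 on the DOS arrays against 116 to 149 on the DMSO arrays. The part of these shifts in the purine gene results was not tested.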

How the data were processed

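Cy3-labelled RNA of each culture was hybridized to its own Agilent SurePrint G3 Mouse array, whose scan the authors read with Agilent Feature Extraction 11.5.1.1, which gave the deposited background-subtracted processed intensity of each spot, not scaled between arrays, and the deposited detection and outlier flags. A second deposited table, of log2 values scaled to the 75th percentile and median-centred by probe, served only as an alternative.

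Here the log2 of the processed intensity (floor 1) was set relative to the 75th percentile over non-control spots, outlier spots were dropped and the spots of a probe were averaged. Probes were named through their RefSeq accession, which named 26576 of 55681. Genes take the value of their brightest probe over the 23 arrays. Each comparison was fitted on its own groups with limma 3.58.1 (R 4.3.3, with the data.table package, version 1.17.8) over probes that, on every array of at least 1 group, were well above background and not under the 20th percentile, with Benjamini-Hochberg adjustment, and called at an adjusted p below 0.05 and over 1.5-fold. The steps were tested on simulated data. Figures used Python and matplotlib. Precision rests on the number of arrays.

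The members and the lists were chosen with earlier results of these data known. Named were all 10 members, up to 5 called genes with the largest change under DOM in each list, and the 5 genes most like Hprt. Others are marked. Promoters came from RefSeq (GRCm38.p6), and the array was designed on another build, so no probe positions are given.

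Replicate numbers are shared between groups. The deviations (array minus group mean) of arrays with the same number correlated above 0.1 in every pair for DINCH (0.17 to 0.50), BDB (0.25 to 0.44) and DOS (0.20 to 0.45). From the values alone these compounds looked paired with DMSO, and MEHP (-0.14 to 0.45) and DOM (0.04 to 0.43) did not. Most arrays shared a slide with the DMSO array of their number, so pairing and slide cannot be told apart. The lowest values of MEHP and DOM were those of replicate 2, on slide 1, while DMSO replicate 2 was on slide 2. No reported fit used the pairing, which entered only as the alternative with a block for the replicate number.

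Tried as alternatives were normexp background correction (offset 50), quantile normalization, no filter or detection on 1 array, a block for slide or replicate number, a single fit of all 6 groups, keeping outlier spots, using the brightest probe alone, the values of the authors, leaving out each array and, added after the data were seen, no minimum fold.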

Additional observations from a re-analysis of the deposited data

Results flagged for a closer look

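In 4 of 50 sets of 4 arrays, each set being a purine gene in a treatment, a single array stood apart by a range test that flags about 1 set in 20 by chance. Hprt was at 5.62 on DMSO replicate 1 and between 5.32 and 5.36 on the others. Ppat was at 0.82 on MEHP replicate 4 and between 1.30 and 1.35 on the others. Pfas was at 0.37 on DOM replicate 2 and between 0.95 and 1.05 on the others. Impdh2 was at 6.26 on DMSO replicate 2, while the others were all at 6.22, a gap far smaller than the difference between DOM and DMSO. Sets of 3 arrays were not tested.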

How the results depend on the processing

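The count of purine genes called under DOM went from 2 to 0 without a filter on dim probes and to 7 with no minimum fold, and ran from 1 (without DMSO replicate 1) to 4 (without DMSO replicate 2) as each array was left out. Under DINCH it went from 1 to 0 without a filter, with detection on 1 array and with the replicate block, to 2 with no minimum fold, and ran from 0 to 1 as arrays were left out. The replicate block changed no other count against DMSO (DOM 2, the wider lists 33, MEHP, BDB and DOS 0) but ended the call of Pfas in DOM against DOS, and the cause of these changes was not tested. With no minimum fold the called genes of the wider lists numbered 48, and over the other alternatives 29 to 35. All 106 medians over the 10 genes moved by less than the spread between replicate arrays, as did 1054 values of single purine genes, while 6 moved by more. No called value of a purine gene changed direction, nor did any of the list genes named for DOM, while the 4 list genes named for DINCH were not run under the alternatives. Of 23 called genes named from the wider lists 20 were called in all 18 alternatives, the exceptions being Odc1 (9 of 18), Adss (11 of 18) and Ncl (16 of 18). The scaling moved the median DOM difference of all tested probes from -0.08 to -0.01 (quantile normalization). Matched replicate numbers correlated best with their own number on 2 of 4 DOM and 3 of 4 MEHP arrays.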
